A study of Mus musculus with 3 samples.

Results

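Mir143 and Mir145a are neighbouring microRNA (miRNA) genes, and their small RNAs were followed here through both arms, by length, start and 3' tail. They are 2 of 497 named miRNA hairpins with reads, and they were chosen by name, with earlier results of these data known. Their reads were inserts of 18 to 25 nt that matched the hairpin exactly or with 1 to 2 added 3' bases that the genome does not encode. HL-1, the cells sequenced, are a line of mouse heart muscle cells grown from an atrial tumour, which still beat in the dish. The cells had been transfected with siRNA (9 µl of a 20 µM stock) and were harvested 48 h later, per the labels.

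An miRNA is cut from a hairpin, first in the nucleus by Drosha and then in the cytoplasm by Dicer. This leaves a duplex of a 5' arm (5p) and a 3' arm (3p), of which usually one strand is kept in an Argonaute protein and guides it to mRNAs through its seed, bases 2 to 8. miR-143 and miR-145 come from one primary transcript. They are best known in vascular smooth muscle, where serum response factor (SRF) with its partner myocardin drives their gene and where they favour the contractile state. In the embryonic heart the cluster is active in cardiac progenitors.

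Under 3 sample titles, 1 library titled siSrf1 and 1 titled siSrf2 were used, and that titled siNon was not analysed here. By title both libraries received an siRNA against Srf, the gene of SRF. The siRNA field of the labels does not match the titles. It gives Srf si2 for the sample titled siSrf1, which is an Srf siRNA of another number, and siNon for that titled siSrf2. Inserts that matched Srf exons numbered 36 in the library labelled siSrf1 and 1230 in the library labelled siSrf2. Of the 36, 19 lay within a window of 30 nt that also held 1169 of the siSrf2-labelled inserts. All 1230 siSrf2-labelled inserts lay within a window of 30 nt. That pile goes against the entry siNon of the library labelled siSrf2. Without an agreed label or a control library, a difference between the libraries cannot be tied to loss of SRF, and with 1 library per group no difference has a replicate check. Intervals below are 95% intervals of counting error only, because 1 library per group holds no variation between cultures or libraries. No molecular identifiers tell copies of 1 molecule from separate molecules, so copies could make even these intervals too narrow.

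The library labelled siSrf1 held 14911499 reads and 5227610 miRNA reads, and the library labelled siSrf2 held 14518157 reads and 4549108 miRNA reads. Of 254 miRNAs with at least 50 reads over both libraries, 204 had a log2 ratio of siSrf1 over siSrf2 below 0, and the median was -0.41. Scaling with TMM factors moved each log2 ratio up by 0.48 and with median-of-ratios size factors by 0.41, so a ratio near the median changes sign with the scaling. The miRNAs of heart muscle took 648420 reads per 1000000 miRNA reads (RPM) in the library labelled siSrf1 and 538190 in the library labelled siSrf2, nearly all of them miR-1a-3p. Of these 5 miRNAs, 3 had a log2 ratio below 0, and the list median was -0.26. Below 0 were miR-133a-3p at -1.05, miR-208a-5p at -0.86 and miR-208b-3p at -0.26. Above 0 were miR-1a-3p at 0.28 and miR-499-5p at 0.01. The 6 epithelial hairpins held 46 siSrf1-labelled and 34 siSrf2-labelled reads. Blood miRNAs held 491 siSrf1-labelled and 460 siSrf2-labelled reads. For miR-9-5p of neurons there were 93 siSrf1-labelled and 104 siSrf2-labelled reads, and for miR-122-5p of liver 37 and 60. The endothelial hairpin Mir126a held 3125 siSrf1-labelled and 2371 siSrf2-labelled reads, or 598 RPM in the library labelled siSrf1 and 521 RPM in the library labelled siSrf2. Mir143 and Mir145a stand themselves in the list of smooth muscle and fibroblast miRNAs. The other members of that list were abundant or at least present, with 92946 siSrf1-labelled and 66957 siSrf2-labelled reads of miR-199a-3p and miR-199b-3p, which have the same sequence, and 201 siSrf1-labelled and 125 siSrf2-labelled reads of miR-214-3p, and both were higher in the library labelled siSrf1. HL-1 is a single line, so these levels are not read as shares of cell types. Whether fewer cells or less RNA per cell lies behind a level cannot be told apart in such libraries.

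Both hairpins lie on the minus strand of chromosome 18 in the NCBIM37 build. Mir143, a hairpin of 63 nt, lies at 61808850 to 61808912, and Mir145a, which the GENCODE vM1 annotation calls Mir145, is a hairpin of 88 nt at 61807470 to 61807557. Each is annotated as a gene of its own with 1 exon, no other annotated gene overlaps them, and 1292 bases lie between them. Mir143 comes first in the direction of transcription. The most frequent insert of each arm (the main insert) had 1 match in the genome, and no other of 684 miRNAs with reads had the same seed as any of the 4. The main insert of miR-143-3p covered hairpin bases 40 to 60 (21 nt) and that of miR-143-5p bases 6 to 26 (21 nt). The main insert of miR-145a-5p covered bases 16 to 38 (23 nt) and that of miR-145a-3p bases 56 to 75 (20 nt). The kept strands therefore come from opposite sides of their hairpins.

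Of the 4 arms of the cluster, miR-145a-5p differed most between the libraries. It was 4.61-fold lower in the library labelled siSrf1, while its neighbour miR-143-3p was 1.27-fold lower there and the other strand of its own hairpin, miR-145a-3p, did not differ beyond counting error on the scale of miRNA reads. Within miR-145a-5p, the ratio was lower at each step of templated length (the part of an insert that the hairpin encodes) between 19 and 24 nt.

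miR-143-3p, the guide strand of Mir143, had 37207 reads in the library labelled siSrf1 and 41119 reads in the library labelled siSrf2. This came to 7117 (7045 to 7190) RPM in the library labelled siSrf1, against 9039 (8952 to 9127) in that labelled siSrf2. It ranked 12 among 553 miRNAs with reads in the library labelled siSrf1 and 14 among 638 in the library labelled siSrf2. Its log2 ratio was -0.34 (-0.37 to -0.32), close to the median of all miRNAs, and 53.1% of the measured miRNAs had a lower one. The miRNAs of heart muscle lay on either side of it. miR-1a-3p and miR-499-5p had more reads than miR-143-3p, with 73274 siSrf1-labelled and 63368 siSrf2-labelled reads of miR-499-5p. miR-133a-3p, miR-208a-5p and miR-208b-3p had fewer, with 6168.5 siSrf1-labelled and 11119 siSrf2-labelled reads of miR-133a-3p.

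miR-145a-5p, the guide strand of Mir145a, had 715 reads in the library labelled siSrf1 and 2868 reads in the library labelled siSrf2. These were 137 (127 to 147) RPM in the library labelled siSrf1, against 630 (608 to 654) in that labelled siSrf2. Its rank was 82 in the library labelled siSrf1 and 52 in the library labelled siSrf2. The log2 ratio was -2.20 (-2.32 to -2.09), the tenth lowest of the 254. It passed the size rule used here, a difference of at least 2-fold with the whole interval on one side of 0, which 60 of 254 miRNAs passed with a lower level in the library labelled siSrf1 (23.6%) and 0 of 254 with a higher level (0%). With TMM factors it was still at least 2-fold lower at -1.72, while miR-143-3p turned to 0.14.

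The passenger strands did not pass the rule. miR-143-5p had 2088 reads in the library labelled siSrf1 and 2385 reads in the library labelled siSrf2, or 399 (382 to 417) siSrf1-labelled and 524 (503 to 546) siSrf2-labelled RPM. Its log2 ratio of -0.39 (-0.48 to -0.31) lay beside that of miR-143-3p. miR-145a-3p had 129 reads in the library labelled siSrf1 and 117 reads in the library labelled siSrf2, or 24.7 (20.6 to 29.3) siSrf1-labelled and 25.7 (21.3 to 30.8) siSrf2-labelled RPM. Its log2 ratio was -0.06 (-0.43 to 0.31), an interval that reaches neither a 2-fold rise nor a 2-fold fall. With other scalings the sign of both passenger strands' ratios changed, to 0.09 for miR-143-5p and 0.42 (0.05 to 0.80) for miR-145a-3p with TMM factors, an interval that no longer includes 0. In order of level, miR-143-3p led and miR-145a-3p came last in both libraries. The middle places changed: miR-143-5p was above miR-145a-5p in the library labelled siSrf1, and miR-145a-5p was above miR-143-5p in the library labelled siSrf2.

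**Figure D1:**
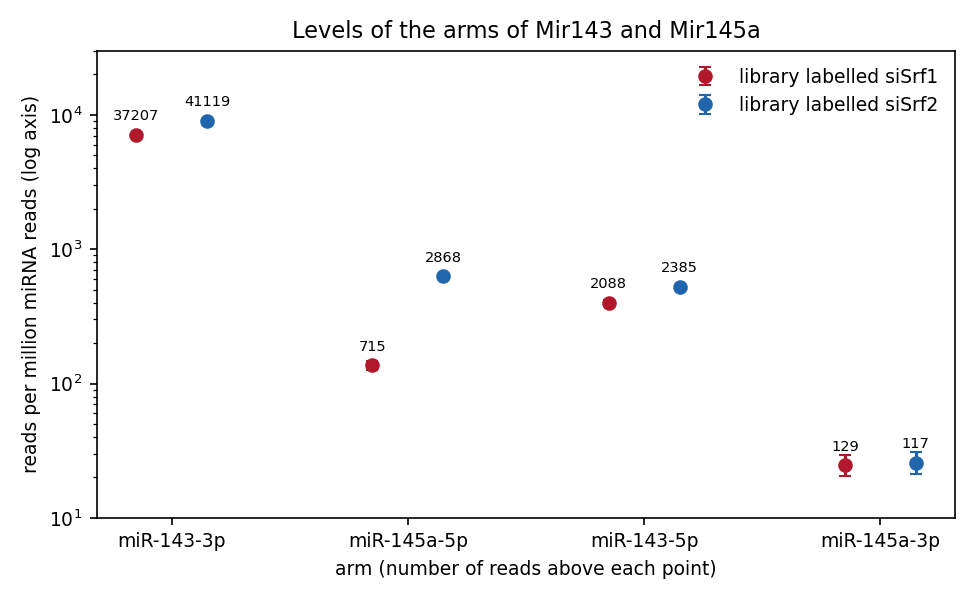
RPM (log axis) of the 4 arms, with the library labelled siSrf1 left of the library labelled siSrf2; bars are exact Poisson 95% intervals and the number above each point is its reads. miR-145a-5p stands apart with 715 siSrf1-labelled and 2868 siSrf2-labelled reads, while both points of each of the other 3 arms lie close together.

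**Figure D2:**
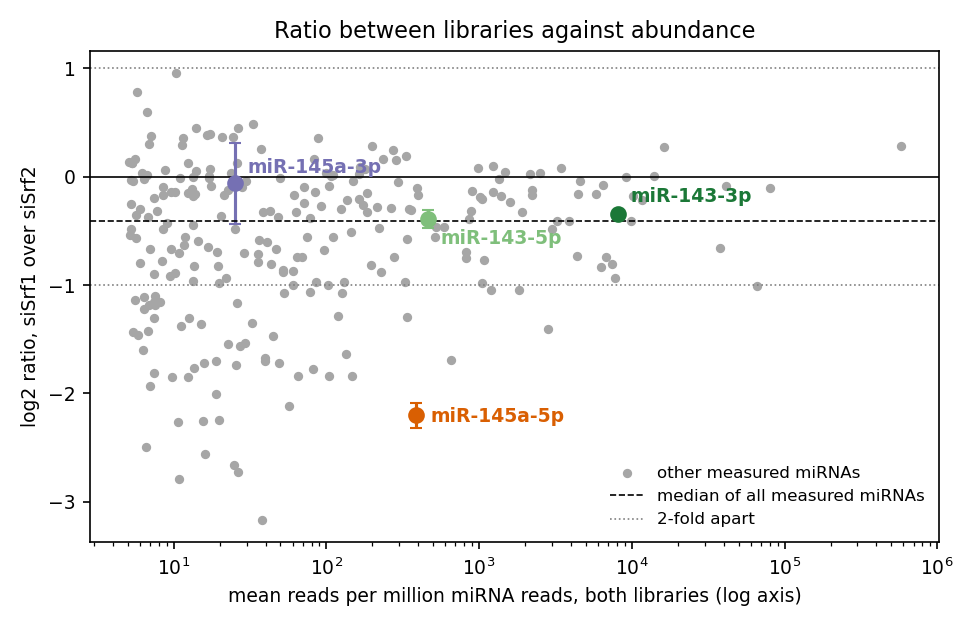
Log2 ratio of the library labelled siSrf1 over the library labelled siSrf2 against mean abundance (log axis) for 254 miRNAs, with exact binomial 95% intervals on the 4 arms. miR-143-3p (-0.34) and miR-143-5p (-0.39) lie at the median of -0.41 (dashed), and miR-145a-5p (-2.20) lies below all miRNAs of its abundance or higher.

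Because each library has its own scale, the arms were also set against each other within a library. Reads of miR-145a-5p were 1.92% of those of miR-143-3p in the library labelled siSrf1, against 6.97% in the library labelled siSrf2. There were thus 52.0 reads of miR-143-3p for each of miR-145a-5p in the library labelled siSrf1 and 14.3 in the library labelled siSrf2. The quotient was 3.63-fold lower in the library labelled siSrf1, a log2 ratio of -1.86 (-1.98 to -1.74). No single scaling factor per library can move it. A difference between the libraries that depends on insert length would not cancel, since the main inserts were 23 nt and 21 nt long. In the pooled reads of all other miRNAs without the 5 most abundant, the log2 ratio was -0.06 at 21 nt and -0.55 at 23 nt. A quotient of reads is not one of molecules, since ligation to the adapters depends on the sequence.

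The quotient of the passenger strands did not differ beyond counting error. Reads of miR-145a-3p were 6.18% of those of miR-143-5p in the library labelled siSrf1, against 4.91% in the library labelled siSrf2. The log2 ratio was 0.33 (-0.05 to 0.72), above the whole interval of the quotient of the guide strands.

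The gap between miR-145a-5p and miR-143-3p was set beside those of other neighbouring hairpins on the same strand at most 10 kb apart, each with at least 200 reads of its main arm. Of 31 such pairs, Mir143 and Mir145a had the widest gap between the log2 ratios of their main arms, at 1.86. The median gap was 0.41 (quartiles 0.17 and 0.63), and 2 pairs were at least 2-fold apart. The other was Mir1a-1 with Mir133a-2, whose main arms miR-1a-3p and miR-133a-3p had log2 ratios of 0.28 and -1.05, a gap of 1.33. The third was Mir503 with Mir322, at -1.69 and -0.75, a gap of 0.94. All reads of miR-1a-3p were placed on Mir1a-1, and the hairpin Mir1a-2 was not measured. Reads of miR-133a-3p and of some other main arms, such as let-7f-5p and miR-24-3p, match more than 1 hairpin. Pairs may share a transcript or not, and some pairs share a hairpin, so this order is a description.

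**Figure D3:**
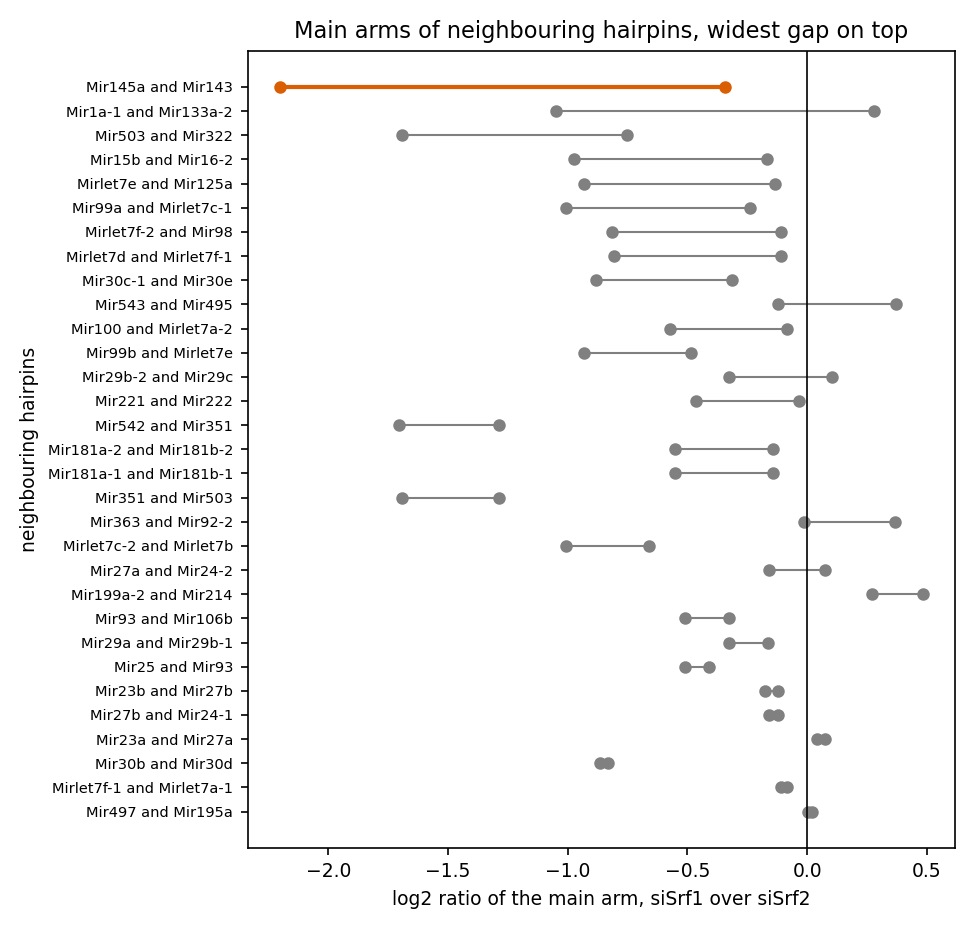
Log2 ratio (siSrf1 over siSrf2) of the main arm of each hairpin in 31 neighbouring pairs, joined by a line and ordered by the width of the gap. Mir145a and Mir143 (orange, on top) lie 1.86 apart, against a median gap of 0.41.

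The balance of the arms differed between the libraries in Mir145a and not by this measure in Mir143. In Mir143 the 5p arm held 5.31% (5.09 to 5.54) of the reads of both arms in the library labelled siSrf1, against 5.48% (5.27 to 5.70) in that labelled siSrf2. In Mir145a it held 84.7% (82.1 to 87.1) in the library labelled siSrf1, against 96.1% (95.3 to 96.7) in that labelled siSrf2. This share was called lower, meaning 5 points or more with intervals apart, as it was in 6 of 70 hairpins (8.57%); it was called higher in 9 of 70 (12.9%). Counted as the difference between the log2 ratios of the arms, Mir145a had a gap of 2.14, the third widest of 70 hairpins with a median of 0.53. Mir143 had a gap of 0.05, at place 64 of the 70.

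A few reads came from neither arm. In Mir145a, 13 reads in the library labelled siSrf1 and 21 in the library labelled siSrf2 began at hairpin base 37, near the loop-side end of the 5p arm, and all but 1 of them were 19 nt long. A further 4 reads of the library labelled siSrf2 lay before the 5p arm. Mir143 gave 0 reads outside its arms among 39295 reads in the library labelled siSrf1, with an exact interval up to 0.00939%, and 0 among 43504 siSrf2-labelled reads, with an interval up to 0.00848%. Its main inserts end at base 26 and begin again at base 40, and the stretch between them is shorter than 18 nt. A piece of that loop alone could not be counted, so these counts of 0 do not show its absence, and the 2 hairpins cannot be compared here. Outside the hairpins, within 2000 nt of them, 1 read was found in the library labelled siSrf1 and 2 in the library labelled siSrf2.

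The 5' end decides the seed, and it was sharply set in 3 of the 4 arms. miR-143-3p began at its main start in 98.7% (98.6 to 98.8) of reads in the library labelled siSrf1, against 98.9% (98.8 to 99.0) in that labelled siSrf2. miR-145a-5p did so in 99.9% of siSrf1-labelled reads (99.2 to 100) and 99.4% of siSrf2-labelled reads (99.0 to 99.6). miR-143-5p did so in 99.5% of siSrf1-labelled reads (99.1 to 99.7) and 99.3% of siSrf2-labelled reads (98.9 to 99.6). The median of 144 miRNAs with enough reads was 98.7% in both libraries, so these starts are about as sharp as usual. miR-145a-3p differed from its sister arms, with 69.0% (60.3 to 76.8) in the library labelled siSrf1, against 71.8% (62.7 to 79.7) in that labelled siSrf2, and all its other reads began 1 or 2 bases earlier. A start 2 bases earlier was found in 25 of 129 siSrf1-labelled and 23 of 117 siSrf2-labelled reads. None of the 4 differed in its start by the rule for shares, which 1 of 254 miRNAs passed with a lower share in the library labelled siSrf1 (0.394%) and 0 with a higher one.

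The 3' ends were less uniform. miR-143-3p had a templated length of 21 nt in 50.9% and of 20 nt in 36.8% of reads in the library labelled siSrf1, against 54.0% at 21 nt and 34.2% at 20 nt in the library labelled siSrf2. Its reads thus fall on neighbouring ends, and the mean was 20.5 nt in both. miR-145a-5p had a mean of 22.4 nt in the library labelled siSrf1 and 22.7 nt in the library labelled siSrf2, with one leading end at 23 nt, which held 447 of 715 siSrf1-labelled and 2055 of 2868 siSrf2-labelled reads.

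In miR-145a-5p the ratio between the libraries went down at every step of templated length between 19 and 24 nt, though the intervals of neighbouring lengths overlap. At 19 nt there were 38 reads in the library labelled siSrf1 and 48 in the library labelled siSrf2, with a log2 ratio of -0.53 (-1.19 to 0.11). At 20 nt there were 34 siSrf1-labelled and 61 siSrf2-labelled reads, with a log2 ratio of -1.03 (-1.69 to -0.42). At 21 nt there were 41 siSrf1-labelled and 106 siSrf2-labelled reads, with -1.56 (-2.13 to -1.04). At 22 nt there were 117 siSrf1-labelled and 395 siSrf2-labelled reads, with -1.95 (-2.27 to -1.65). The 23 nt form had 447 siSrf1-labelled and 2055 siSrf2-labelled reads and -2.40 (-2.55 to -2.25), and the 24 nt form 34 siSrf1-labelled and 194 siSrf2-labelled reads and -2.70 (-3.28 to -2.18). Inserts with a templated length of at most 20 nt had a log2 ratio of -0.83 (-1.27 to -0.41) and longer ones -2.31 (-2.43 to -2.18), and these intervals do not overlap. These short inserts were 10.6% (8.47 to 13.1) of miR-145a-5p reads in the library labelled siSrf1, against 4.11% (3.42 to 4.91) in that labelled siSrf2.

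Across all miRNAs, a like measure was the share of reads whose templated part was over 1 nt shorter than the main insert, which for the 23 nt main insert of miR-145a-5p means at most 21 nt. For miR-145a-5p it was 16.4% (13.7 to 19.3) in the library labelled siSrf1, against 7.81% (6.85 to 8.85) in that labelled siSrf2, which passed the rule for shares, as 8 of 254 miRNAs did with a higher share in the library labelled siSrf1 (3.15%). For miR-143-3p it was 8.88% of siSrf1-labelled and 8.55% of siSrf2-labelled reads. For miR-143-5p it was 16.0% (14.4 to 17.6) of siSrf1-labelled and 12.6% (11.3 to 14.02) of siSrf2-labelled reads, a difference under 5 points. For miR-145a-3p the intervals overlapped, with 1.55% (0.188 to 5.49) of siSrf1-labelled and 0.855% (0.0216 to 4.67) of siSrf2-labelled reads.

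Length also moved with the ratio outside the cluster. In all other miRNAs without the 5 most abundant, the log2 ratio was -0.02 at 20 nt, -0.34 at 22 nt, -0.55 at 23 nt and -0.83 at 24 nt, so inserts of 22 to 24 nt were relatively fewer there in the library labelled siSrf1. With the 5 most abundant miRNAs kept in, it was 0.07 at 20 nt, -0.02 at 21 nt, 0.04 at 22 nt, -0.49 at 23 nt and -0.83 at 24 nt, and the ratio at 22 nt was then not below that at 21 nt. These values pool the reads of many miRNAs, so abundant ones weigh most and length is mixed with which miRNAs have it. Taken within each miRNA, the gap between the log2 ratios of shorter and full inserts was above 0 in 112 of 150 miRNAs, with a median of 0.16. It was 0.82 for miR-145a-5p, the fourth widest, 0.46 for miR-143-5p, at place 26, and 0.17 for miR-143-3p, at place 73. Base composition moved with the ratio too. Spearman's rho between log2 ratio and GC content was -0.24 across the 254 miRNAs of this pair of libraries, as a description. The GC content of the main inserts was 52.2% for miR-145a-5p, 47.6% for miR-143-3p, 61.9% for miR-143-5p and 35.0% for miR-145a-3p. The most GC-rich of the 4, miR-143-5p, was at the median ratio. The part of length and base composition in the low level of miR-145a-5p was not tested. Its 23 nt form alone was at -2.40, against -0.55 for the pooled reads of the other miRNAs at 23 nt, without the 5 most abundant.

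**Figure D4:**
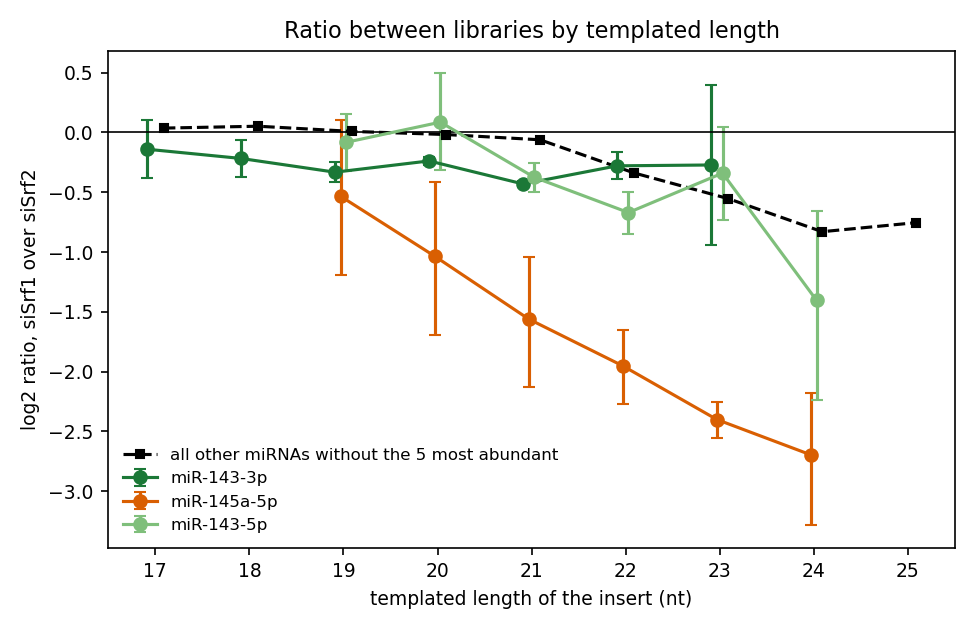
Log2 ratio (siSrf1 over siSrf2) of miR-143-3p, miR-145a-5p and miR-143-5p by templated length, with exact binomial 95% intervals, and of the pooled reads of all other miRNAs without the 5 most abundant (squares). The ratio of miR-145a-5p is -0.53 at 19 nt and -2.70 at 24 nt, below the other lines at 20 nt and longer.

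Untemplated 3' tails are bases added after cutting, as a rule adenine or uridine (read as thymine), and they mark miRNAs that nucleotidyl transferases have acted on. An added base equal to the next base of the hairpin counts as templated here, so it cannot be seen at that end and the shares below miss such tails. miR-143-3p carried a tail of 1 or 2 bases in 19.9% (19.5 to 20.3) of reads in the library labelled siSrf1, against 18.1% (17.7 to 18.5) in that labelled siSrf2. The intervals do not overlap, but the difference of 1.80 points is under the 5 points of the rule. miR-145a-5p had tails on 14.1% (11.7 to 16.9) of siSrf1-labelled and 13.4% (12.2 to 14.7) of siSrf2-labelled reads, and miR-143-5p on 31.8% (29.8 to 33.8) of siSrf1-labelled and 30.9% (29.01 to 32.8) of siSrf2-labelled reads. The median of 144 miRNAs was 15.9% in the library labelled siSrf1 and 17.3% in the library labelled siSrf2, and miR-143-5p lay above the upper quartiles of 29.1% in the library labelled siSrf1 and 27.2% in the library labelled siSrf2. For miR-145a-3p the share was 34.9% (26.7 to 43.8) of siSrf1-labelled and 23.9% (16.5 to 32.7) of siSrf2-labelled reads, with overlapping intervals. Tail shares passed the rule in 2 of 254 miRNAs lower (0.787%) and 1 of 254 higher (0.394%), none of them one of the 4 arms.

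The first base seen in the tail depended on the arm and on where the templated part ended, in part because some added bases could not be seen. In miR-143-3p, ends at 20 nt carried mainly adenine, in 15.6% (15.03 to 16.3) of such reads in the library labelled siSrf1, against 14.4% (13.8 to 14.96) in that labelled siSrf2. Ends at 21 nt carried uridine, in 16.8% (16.3 to 17.4) of siSrf1-labelled and 14.9% (14.4 to 15.4) of siSrf2-labelled reads, and an added adenine could not be seen there. Over all ends, adenine led 9.12% and uridine 10.3% of miR-143-3p reads in the library labelled siSrf1. The values were 7.76% and 9.72% in the library labelled siSrf2. These totals miss added adenine at 21 nt and added uridine at 19 nt. At the ends of 17, 18, 20 and 22 nt both bases could be seen. There adenine came first on 2732 of 15640 reads and uridine on 603 in the library labelled siSrf1. Counts in the library labelled siSrf2 were 2622 of 16098 for adenine and 657 for uridine. The reads with a 17 nt end, 288 siSrf1-labelled and 276 siSrf2-labelled, all had a tail, because inserts under 18 nt were not counted.

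In miR-145a-5p an added uridine could not be seen at the 22 nt and 23 nt ends, which held 564 of 715 siSrf1-labelled and 2444 of 2868 siSrf2-labelled reads, so the makeup of its tails as a whole is not given. At the ends of 19, 20, 21 and 24 nt, where both bases could be seen, adenine came first on 38 of 146 reads and uridine on 8 in the library labelled siSrf1, against adenine on 62 of 399 and uridine on 20 in the library labelled siSrf2. At 24 nt alone, uridine came first on 6 reads and adenine on 1 in the library labelled siSrf1, and uridine on 12 and adenine on 9 in the library labelled siSrf2. At its 23 nt end a tail that began with another base than uridine was found on 5.15% (3.29 to 7.62) of reads in the library labelled siSrf1 and on 10.4% (9.13 to 11.8) in the library labelled siSrf2. At its 22 nt end the share of such tails was 24.8% (17.3 to 33.6) in the library labelled siSrf1, against 20.8% (16.9 to 25.1) in that labelled siSrf2, with overlapping intervals. The 23 nt end was singled out after its values were seen. In miR-145a-3p an added uridine could not be seen at the main 20 nt end, where adenine came first on 30 of 68 reads in the library labelled siSrf1 and on 23 of 68 in the library labelled siSrf2.

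**Figure D5:**
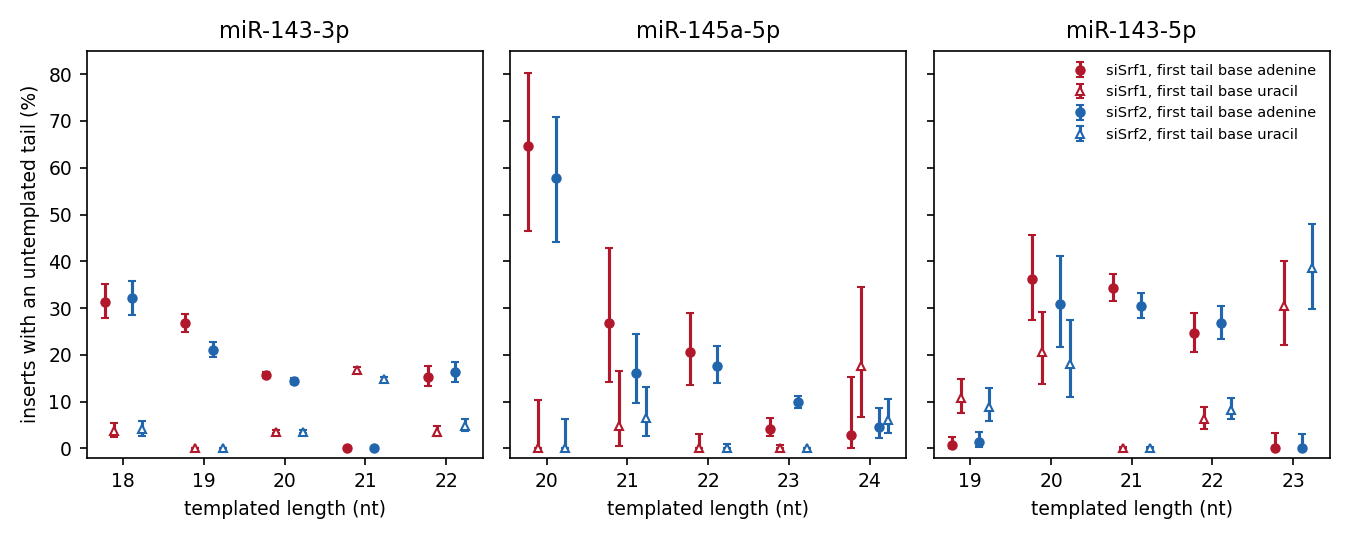
Share of reads with a tail that begins with adenine (filled circles) or uracil (open triangles), by templated length, with Clopper-Pearson 95% intervals; the library labelled siSrf1 stands left of the library labelled siSrf2. In miR-143-3p adenine is at 15.6% (siSrf1) and 14.4% (siSrf2) at 20 nt and uracil at 16.8% (siSrf1) and 14.9% (siSrf2) at 21 nt. Adenine cannot be seen at 21 nt nor uracil at 19 nt in miR-143-3p. In miR-143-5p uracil cannot be seen at 21 nt nor adenine at 23 nt. Points at such ends stand at 0 by the method. Uracil cannot be seen at 22 nt and 23 nt in miR-145a-5p, and at 24 nt it is at 17.6% (siSrf1) and 6.19% (siSrf2), above adenine at 2.94% (siSrf1) and 4.64% (siSrf2).

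Single-base mismatches inside the templated part were counted apart, since they were not part of the counts above. They made up 6.05% (5.79 to 6.32) of the untailed reads of miR-143-3p in the library labelled siSrf1, against 4.92% (4.70 to 5.15) in that labelled siSrf2. For miR-145a-5p the share was 16.5% (13.9 to 19.3) of siSrf1-labelled and 12.4% (11.2 to 13.6) of siSrf2-labelled reads. For miR-143-5p it was 15.5% (13.8 to 17.3) of siSrf1-labelled and 13.3% (11.9 to 14.96) of siSrf2-labelled reads. Allowing 1 mismatch put the log2 ratio of miR-145a-5p at -2.15.

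The miRNAs whose ratio was nearest to that of miR-143-3p, among those with at least 200 reads, were miR-106b-5p (291 siSrf1-labelled and 318 siSrf2-labelled reads, -0.33), miR-29b-3p (852 siSrf1-labelled and 929.5 siSrf2-labelled reads, -0.33) and miR-142-5p (178 siSrf1-labelled and 194 siSrf2-labelled reads, -0.32). Those nearest to miR-145a-5p were miR-187-5p (111 siSrf1-labelled and 421 siSrf2-labelled reads, -2.12), miR-484-5p (149 siSrf1-labelled and 465 siSrf2-labelled reads, -1.84) and miR-501-3p (237 siSrf1-labelled and 738 siSrf2-labelled reads, -1.84). Likeness here is the distance between 2 log2 ratios from the same pair of libraries. The mature sequences of 4 of these, from RefSeq on GRCm38.p6, show how the companions of the arms differ in base composition. Capitals mark the seed, bases 2 to 8.
miR-106b-5p (near miR-143-3p): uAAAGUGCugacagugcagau
miR-29b-3p (near miR-143-3p): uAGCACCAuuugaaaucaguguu
miR-484-5p (near miR-145a-5p): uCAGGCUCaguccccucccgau
miR-501-3p (near miR-145a-5p): aAUGCACCcgggcaaggauuug
miR-106b-5p and miR-29b-3p had a GC content of 42.9% and 34.8%, and miR-484-5p and miR-501-3p had 63.6% and 54.5%.

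By abundance, miR-143-3p stood between miR-140-3p (47702 siSrf1-labelled and 41605 siSrf2-labelled reads) and let-7e-5p (27847 siSrf1-labelled and 46245 siSrf2-labelled reads). Their log2 ratios were -0.0033 for miR-140-3p and -0.93 for let-7e-5p, so neighbours in abundance lay on either side of its -0.34. miR-145a-5p stood between miR-192-5p (1971 siSrf1-labelled and 1840 siSrf2-labelled reads, -0.10) and miR-186-5p (1676 siSrf1-labelled and 1801 siSrf2-labelled reads, -0.30), both well above its -2.20.

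Among miRNAs with published control by SRF or myocardin, 6 of 6 were measured, 2 of them passed the size rule with a lower level in the library labelled siSrf1, against 23.6% of all 254. The list median was -0.66, and without miR-143-3p and miR-145a-5p themselves the median of the other 4 was -0.39, against -0.41 over all 254. Beside miR-145a-5p the one that passed was miR-133a-3p, which restrains growth of heart muscle cells, with 6168.5 siSrf1-labelled and 11119 siSrf2-labelled reads and a log2 ratio of -1.05 (-1.10 to -1.01). With TMM factors it was at -0.57. Its relative miR-133b-3p, with 458.5 siSrf1-labelled and 783 siSrf2-labelled reads, was at -0.97. miR-1a-3p, the chief miRNA of striated muscle, was at 0.28 with 3307953 siSrf1-labelled and 2371194 siSrf2-labelled reads, and miR-486-5p, encoded in the Ank1 gene and known from muscle and red cells, was at 0.19 with 1860 siSrf1-labelled and 1418 siSrf2-labelled reads. The members of this list thus lay on either side of 0, from -2.20 to 0.28.

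Of 15 miRNAs with published roles in smooth muscle phenotype, 12 were measured, and miR-145a-5p was the only one of these 12 past the rule, against 23.6% of all 254. The list median was -0.19, and -0.17 without miR-143-3p and miR-145a-5p. miR-21a-5p, which is raised in injured vessels, had 33092 siSrf1-labelled and 30392 siSrf2-labelled reads and a log2 ratio of -0.08. miR-221-3p, which drives smooth muscle cells to divide, had 23472 siSrf1-labelled and 20940 siSrf2-labelled reads and a log2 ratio of -0.04, and its partner miR-222-3p was at -0.46. miR-24-3p, miR-23b-3p and miR-26a-5p lay between -0.17 and -0.16, miR-100-5p at -0.57 and miR-10a-5p at 0.02. Every miRNA named from this list lay above miR-145a-5p.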

How the data were processed

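Small RNA of HL-1 cells was sequenced with an Illumina small RNA kit on the Genome Analyzer, per the labels. The authors deposited a read count for every distinct 36 nt sequence, with no normalization. The sources used here give no aligner, build or filter. The first 8 nt of the 3' adapter, or at least 4 nt of it at the read end, ended the insert. Inserts of 18 to 25 nt were matched to 1120 named hairpins (GENCODE vM1 and RefSeq, on NCBIM37, with 10 nt on either side), exactly or with 1 to 2 untemplated 3' bases after at least 16 templated nt, with a search written in Python 3.11.15. Hairpins outside this set were not counted. An arm was defined by its most frequent insert, and inserts that matched several miRNAs were shared equally. Log2 ratios are siSrf1 over siSrf2 per miRNA reads (pseudocount 0.5), with exact binomial intervals given the sum. Shares carry Clopper-Pearson intervals (scipy 1.17.1). With 1 library per group no p-value was computed. The named miRNAs are the 4 arms, the 3 nearest in ratio and the 2 next in abundance to each guide strand, both lists and the 3 widest pairs. Alternatives used edgeR 4.0.16, DESeq2 1.42.0 (R 4.3.3), other totals, lengths, minimums and matching rules. The members and lists were chosen with earlier results of these data known. The steps were tested on simulated data.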

Additional observations from a re-analysis of the deposited data

Results flagged for a closer look

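Some reads of the 4 arms lay outside the counts above, because no adapter was found in them although they begin with an arm's main insert. miR-143-3p had 2102 such reads in the library labelled siSrf1 and 2201 in the library labelled siSrf2. miR-145a-5p had 64 in the library labelled siSrf1 and 260 in the library labelled siSrf2. miR-143-5p had 234 in the library labelled siSrf1 and 259 in the library labelled siSrf2, and miR-145a-3p had 9 in the library labelled siSrf1 and 13 in the library labelled siSrf2. All of these exceed the 3 reads that a count of 0 allows. They came to between 5.08% and 10.1% of an arm's reads with them included, and for miR-145a-5p to 8.22% in the library labelled siSrf1 and 8.31% in the library labelled siSrf2. The counted reads hold all forms of an arm, but reads without adapter from forms shorter than the main insert are not included. These percentages therefore miss such reads. Mir145a also gave 13 reads between its arms in the library labelled siSrf1 and 21 in the library labelled siSrf2.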

How the results depend on the processing

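miR-145a-5p kept its lower level in the library labelled siSrf1 and passed the size rule in all 13 alternatives, from -2.26 to -1.72. The quotient of miR-145a-5p over miR-143-3p lay between -1.91 and -1.81 in all 8, and the 5p share of Mir145a was 8.57 to 12.1 points lower in the library labelled siSrf1. TMM factors gave the log2 ratio another sign in 3 arms, at 0.14 for miR-143-3p, 0.092 for miR-143-5p and 0.42 for miR-145a-3p, whose interval of 0.05 to 0.80 then excludes 0, and median-of-ratios size factors gave 0.066, 0.019 and 0.35 in the same order. miR-145a-3p also turned to 0.047 with the total of all inserts of 15 nt or longer and to 0.25 without the 5 most abundant miRNAs. With sequences seen once left out, the difference in tail share of miR-145a-5p turned to -0.63 points and that in start share of miR-143-5p to -0.012 points. The number of miRNAs past the size rule was 36 with TMM factors (33 lower, 3 higher), 17 with a minimum of 500 reads and 90 with a minimum of 10 reads (89 lower, 1 higher). The minimums of 500 and 10 reads also change how many miRNAs enter, so their counts cannot be compared with the others as shares. Mir143 and Mir145a remained the widest pair of 25 at most 2 kb apart and of 47 with a minimum of 50 reads. No paired analysis was possible because there is only 1 library in each group. Depth limits miR-145a-3p, with 129 siSrf1-labelled and 117 siSrf2-labelled reads.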
